A study of Mus musculus with 6 samples.

Results

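The Slc25 genes encode the mitochondrial carriers, and every row of the deposited gene table whose symbol is Slc25a followed by a number and nothing else was taken as a member. This rule found 47 genes among the 55450 rows. Of these, 41 had enough counts to be tested, and 6 (Slc25a2, Slc25a18, Slc25a31, Slc25a41, Slc25a43 and Slc25a54) did not pass the filter on low counts. The data are poly(A) RNA sequencing of the left liver lobe of 6 mice of the strain labelled C57BL/J, 1 library per mouse. The 3 knockout (KO) mice carried LKB1 fl/fl alleles and are labelled LKB1 knock out. The 3 wild-type (WT) mice are labelled normal. All 6 mice, the WT mice included, were injected at 6 weeks of age with AAV8 Cre, a virus of the adeno-associated type that delivers the Cre recombinase, and their liver tissue dates from 4 weeks after that, when they were 10 weeks old. The promoter that drives Cre is not given in the labels, and pieces of whole tissue were used, so cells other than hepatocytes also gave RNA.

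Mitochondrial carriers are small proteins of the inner mitochondrial membrane, built from a repeated pair of membrane helices, that swap metabolites between the cytosol and the matrix. In hepatocytes they connect steps of a pathway that lie on opposite sides of that membrane. Ornithine and citrulline cross it in the urea cycle, aspartate, glutamate, malate and oxoglutarate cross it in the malate-aspartate shuttle and during glucose synthesis, and citrate leaves the matrix to feed fatty acid synthesis. ADP, ATP and phosphate cross it for oxidative phosphorylation. LKB1, encoded by Stk11, is a kinase that activates AMPK and its relatives, among them the SIK kinases that restrain the CREB coactivators.

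Total counts ran from 47659122 to 56147667 per library. Stk11 itself had 22.2, 14.4 and 11.4 CPM (counts scaled to the library's total) in knockout 1 to 3 and 64.2 to 69.7 CPM in WT. Its log2 change was -2.06 ± 0.25 (SE), adjusted p = 0.0167, in edgeR's quasi-likelihood test. That call was lost in 4 of 6 refits without a single library, most strongly without WT 3 (adjusted p = 0.104). Replicate 1 of each group, called the Xist pair below, had Xist counts (42472 and 29243) and at most 6 counts of 4 Y-linked genes. Replicates 2 and 3 of each group had at least 6146 Y-linked counts and at most 16 Xist counts. Knockout 1 also kept the most Stk11 of the knockout libraries, so the kind of library and the remaining Stk11 cannot be told apart there. Ratios within replicates 2 and 3 and within the Xist pair are given below for some members only. These passed over all 6 libraries or in a fit of replicates 2 and 3 alone, in which 33.3% of all genes passed. This choice favours members with large ratios in replicates 2 and 3. Some members left out had the larger log2 ratio in the Xist pair. Slc25a34 had 0.11 in replicates 2 and 3 and 1.3 in the pair, Slc25a42 -0.05 and 0.96, and Slc25a44 -0.05 and -0.60. The medians of the 41 tested members were 0.11 and 0.18. Summed CPM of 5 hepatocyte markers was 21900 to 73810 in knockout against 89580 to 131900 in WT, and that of 5 endothelial markers 60.7 to 101 against 127 to 169. Over all 6 libraries, the ranges of the macrophage, stellate, bile duct and lymphocyte markers overlapped between the groups, and 0 of these 30 markers passed the threshold. Within replicates 2 and 3, the macrophage sums did not overlap (69.7 and 55.0 CPM in knockout, 92.7 and 125 CPM in WT). Nor did the bile duct sums there (24.8 and 33.6 CPM against 39.5 and 46.8 CPM), whereas the stellate and lymphocyte sums overlapped. Markers of brown fat and muscle summed to at most 0.106 CPM in every library, with Ucp1 at 0 counts. In such bulk tissue, fewer cells of a type and less RNA per cell cannot be told apart, and the part of these marker differences in the results below was not tested.

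Among the 41 tested carriers, 4 were higher in knockout (Slc25a15, Slc25a48, Slc25a51 and Slc25a11) and 1 was lower (Slc25a37), at an adjusted p under 0.05 in edgeR's quasi-likelihood test with Benjamini-Hochberg adjustment over all genes. These 5 are 12.2% of the tested members, against 3.37% of the 14539 genes tested (2.15% higher and 1.22% lower). They are the carriers of ornithine, of nicotinamide adenine dinucleotide (NAD) and of oxoglutarate and malate, mitoferrin 1, and Slc25a48, for which no substrate class was used here. The 3 knockout and 3 WT libraries did not overlap for 22 members (53.7%, against 32.4% of all genes tested), with knockout above WT for 14 (16.9% of all genes) and below it for 8 (15.5%). At an unadjusted p under 0.05 there were 14 higher and 6 lower members, where 26.3% of all genes passed. The median log2 fold change of the tested members was 0.15, against 0.01 over all genes tested, with 25 values above 0 and 16 below. It was 0.11 within replicates 2 and 3 and 0.18 in the Xist pair. The number of calls depended on the libraries used. Without knockout 1 it was 21 (background over all genes 30.2%), without knockout 2 it was 2 (0.578%) and without WT 1 it was 1 (1.75%). Without knockout 3, WT 2 or WT 3 it was 0 in edgeR (backgrounds 0.233%, 0.0401% and 0.133%), where 17, 13 and 15 members had an unadjusted p under 0.05. With all 6 libraries it was 16 in DESeq2 (15.8%), 5 in limma voom (2.97%), 4 with RLE scaling (3.29%), 6 with library size alone (3.51%), 7 without a filter (3.25%), 12 with the kind of library (Xist or Y-linked counts) as covariate (10.3%) and 0 with the replicate number as a block (0.722%).

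**Figure D1:**
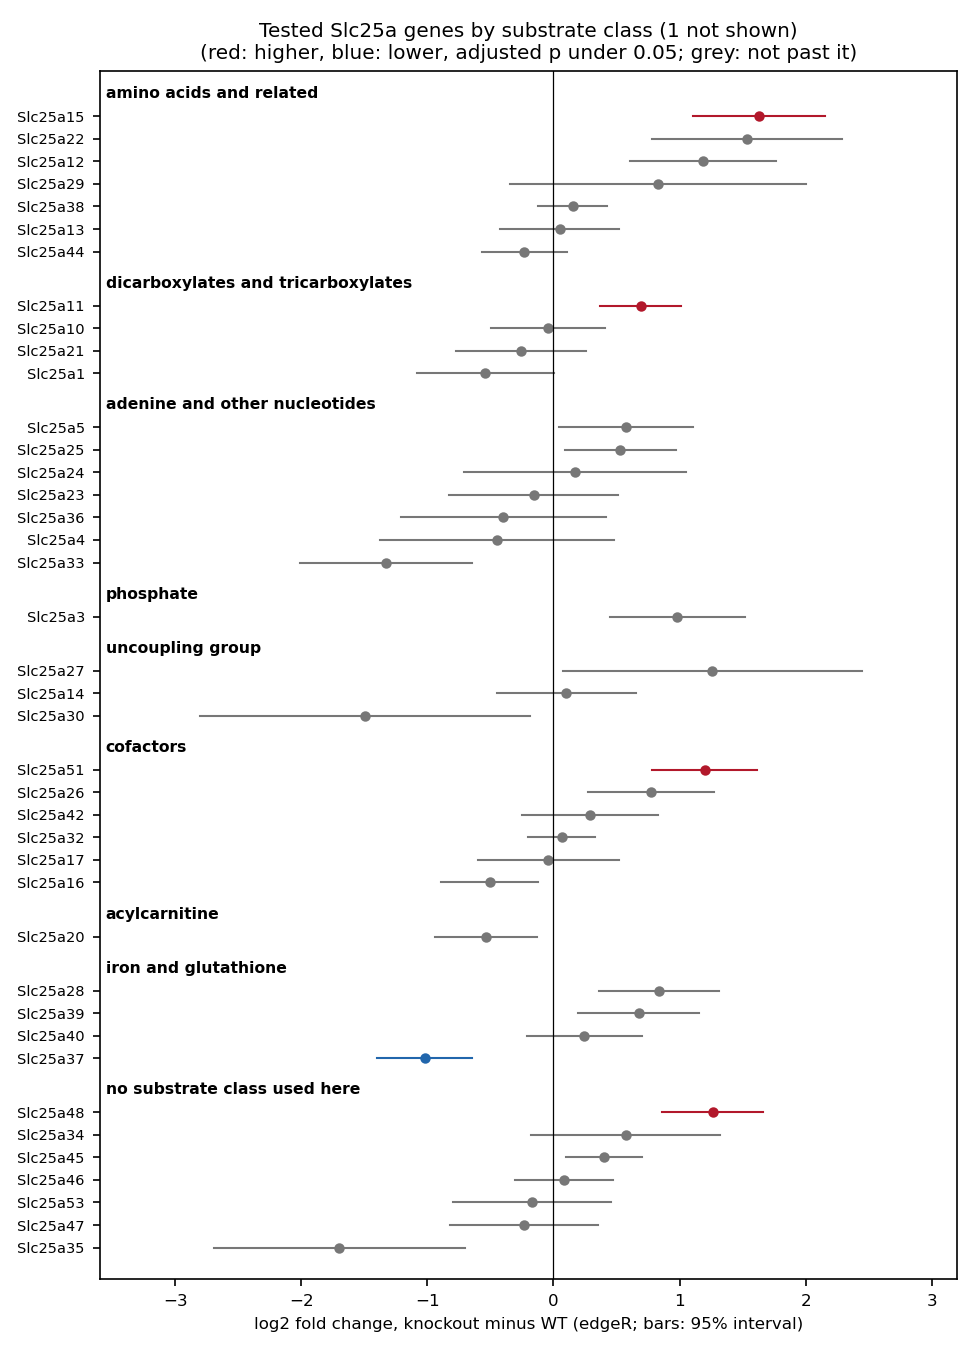
Log2 fold change (horizontal axis, knockout minus WT, edgeR) of the tested Slc25a genes except 1 that is not shown, grouped by substrate class, with 95% intervals over 3 knockout and 3 WT libraries. Red and blue points are the 4 higher and the 1 lower gene past an adjusted p of 0.05, and grey points are the others.

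As a sum, the family was higher in each knockout library than in any WT library. A sum is weighted to the most abundant members, and 16 of the 41 tested had a log2 fold change below 0. The members together had 5040, 5873 and 6180 CPM in knockout 1 to 3 and 3834, 4067 and 3946 CPM in WT 1 to 3. Dividing each gene by its exon length gave 2456 ± 273 CPM per kb in knockout and 1766 ± 62.1 CPM per kb in WT (SD, n = 3 each), without overlap. The summed hepatocyte markers were lower in the same 3 knockout libraries, and their part in this difference was not tested. On this length-scaled level, amino acid carriers made up 21.1%, 27.7% and 24.7% of the family in the knockout libraries and 15.9%, 15.3% and 14.5% in WT. Slc25a15 (11.3% to 14.0% against 5.63% to 6.13%) and Slc25a22 (5.13% to 9.90% against 3.05% to 4.13%) made that difference. The other amino acid carriers together made up 4.67%, 3.79% and 4.71% in knockout and 5.69%, 6.1% and 5.76% in WT. Carriers of di- and tricarboxylates made up 6.75% to 10.9% in knockout and 12.4% to 13.4% in WT. The share of the nucleotide carriers overlapped between the groups, at 24.7% to 27.5% and 26.3% to 28.0%. All these shares are of a family sum that was itself higher in each knockout library. A lower or overlapping share therefore does not give the direction of a class's own level.

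**Figure D2:**
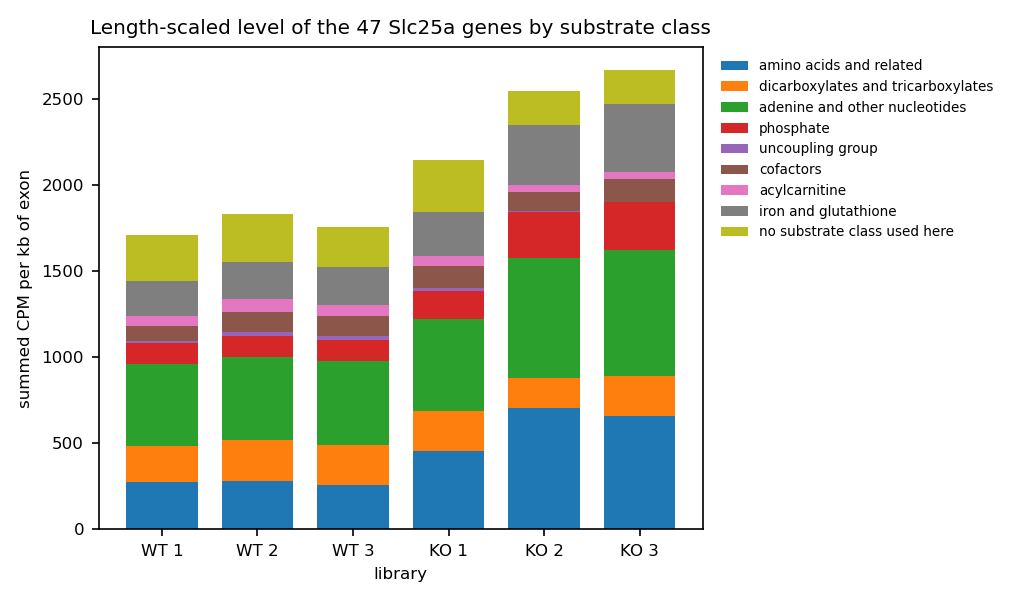
Summed length-scaled level (vertical axis, CPM per kb of exon) of the 47 Slc25a genes in each library (horizontal axis), stacked by substrate class. The knockout columns reach 2149 to 2671 and the WT columns 1709 to 1832, and the amino acid section at the base is taller in each knockout library than in any WT library.

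The highest length-scaled levels in WT were those of the adenine nucleotide carrier Slc25a5 (309 CPM per kb), the liver-enriched carrier Slc25a47 (232 CPM per kb) and the glutathione carrier Slc25a39 (195 CPM per kb). These ranks were the same with exon lengths from the full annotation, whereas Slc25a3 moved from the 4th to the 9th place. In knockout the mean length-scaled level of Slc25a15, 325 CPM per kb, was above that of Slc25a39 (311) and below that of Slc25a5 (461). Slc25a54 had 0 counts in all 6 libraries, which allows up to 3 counts per library, or 0.0515 to 0.0641 CPM. The other 5 untested members had at most 20 counts in any library.

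Promoter windows of 300 bases (250 before and 50 after a start, RefSeq, GRCm38.p6) were given for 36 of the 47 members, with 46 windows in all. Those of the 3 called genes with an entry (Slc25a37 and Slc25a51 had none) are shown. Slc25a3 was not called. Its window is also shown because it held the most matches to the core of the cAMP response element of any member. All of these genes were among the 14 members that were higher in each knockout library than in any WT library. Letters are 5′ to 3′ on the gene's strand, and capitals mark a match on either strand to TGACG (the core of the cAMP response element), TGACGTCA (the whole element, which holds that core on both strands), CACGTG (the E-box), TGATGNAA (the C/EBP-ATF response element) or the motif of nuclear respiratory factor 1, searched by a fixed consensus.
Slc25a15 upstream start, chr8:22398572-22398871, minus strand: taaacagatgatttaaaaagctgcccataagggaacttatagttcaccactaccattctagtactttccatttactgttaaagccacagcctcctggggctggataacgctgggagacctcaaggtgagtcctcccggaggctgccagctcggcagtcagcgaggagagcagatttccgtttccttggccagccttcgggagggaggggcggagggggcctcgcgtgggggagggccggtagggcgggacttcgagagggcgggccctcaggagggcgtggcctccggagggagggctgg
Slc25a15 downstream start, chr8:22398228-22398527, minus strand: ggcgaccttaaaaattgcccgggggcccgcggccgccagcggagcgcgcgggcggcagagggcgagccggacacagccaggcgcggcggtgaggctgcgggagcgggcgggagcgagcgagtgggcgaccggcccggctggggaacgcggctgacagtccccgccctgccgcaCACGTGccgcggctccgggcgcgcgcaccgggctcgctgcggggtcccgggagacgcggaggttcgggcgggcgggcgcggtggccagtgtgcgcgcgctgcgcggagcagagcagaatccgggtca
Slc25a11, chr11:70646990-70647289, minus strand: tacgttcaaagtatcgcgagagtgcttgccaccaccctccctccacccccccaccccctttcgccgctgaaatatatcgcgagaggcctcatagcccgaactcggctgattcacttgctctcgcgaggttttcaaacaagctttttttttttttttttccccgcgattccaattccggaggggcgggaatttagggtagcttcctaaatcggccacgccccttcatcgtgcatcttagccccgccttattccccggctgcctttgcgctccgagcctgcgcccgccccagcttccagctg
Slc25a48, chr13:56438105-56438404, plus strand: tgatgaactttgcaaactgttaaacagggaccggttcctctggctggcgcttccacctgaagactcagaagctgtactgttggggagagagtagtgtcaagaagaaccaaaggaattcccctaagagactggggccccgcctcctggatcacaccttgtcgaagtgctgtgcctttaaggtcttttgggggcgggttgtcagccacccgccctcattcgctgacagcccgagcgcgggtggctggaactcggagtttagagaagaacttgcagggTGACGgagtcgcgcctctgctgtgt
Slc25a3, chr10:91123918-91124217, minus strand: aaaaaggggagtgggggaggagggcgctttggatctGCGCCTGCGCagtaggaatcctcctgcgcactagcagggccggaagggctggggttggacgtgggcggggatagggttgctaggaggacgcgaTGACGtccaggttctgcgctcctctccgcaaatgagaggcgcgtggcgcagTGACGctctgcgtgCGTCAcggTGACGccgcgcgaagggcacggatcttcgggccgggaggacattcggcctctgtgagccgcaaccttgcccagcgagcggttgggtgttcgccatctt

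Slc25a15 had an E-box in its downstream window and none of these motifs in the upstream window, Slc25a48 had 1 core after its start, Slc25a11 had no match, and Slc25a3 had 4 cores and 1 match to the nuclear respiratory factor 1 motif. Over the 46 member windows, TGACG was in 28.3% (against 20.8% of 32851 windows of all genes), CACGTG in 17.4% (7.15%), TGACGTCA in 4.35% (1.79%), the nuclear respiratory factor 1 motif in 4.35% (4.60%) and TGATGNAA in 0 (3.97%). Whole response elements stood in a window of Slc25a25 and in that of Slc25a36. These matches describe letters in the windows, and no binding was measured.

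Amino acid carriers held the largest called rise of the family. Slc25a15 (ENSMUSG00000031482.9, GRCm38 chromosome 8, 22375551 to 22398597, minus strand, protein-coding) encodes the carrier that exchanges cytosolic ornithine for matrix citrulline in the urea cycle. It had 836, 1226 and 1276 CPM in knockout 1 to 3 and 357, 385 and 339 CPM in WT 1 to 3. Every knockout library was above every WT library, and knockout 1 was the lowest of the 3. Fitted over all libraries, the log2 fold change was 1.63 ± 0.22 (SE; 3.09-fold), at an adjusted p of 0.0215 in edgeR, and the log2 ratio was 1.79 within replicates 2 and 3 and 1.23 in the Xist pair. The call held without knockout 1 but not without any other single library, where the adjusted p lay between 0.0564 (without knockout 2) and 0.14 (without WT 3), with 0.102 without knockout 3, 0.0579 without WT 1 and 0.138 without WT 2. Slc25a2, the related ornithine carrier, had 2 to 8 counts per library and was not tested.

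The glutamate carrier Slc25a22 and the aspartate-glutamate carrier Slc25a12 came just short of the threshold. Slc25a22, which brings glutamate into the matrix, was at 504 ± 208 CPM in knockout against 174 ± 26 CPM in WT (SD, n = 3). Its log2 change was 1.53 ± 0.32 (SE) and its adjusted p 0.0525 in edgeR. Its knockout libraries were far apart, at 318, 729 and 464 CPM, yet each was above the highest WT library. Slc25a12, called aralar, exports aspartate in the malate-aspartate shuttle and was at 36.3 ± 11.6 CPM against 15.9 ± 0.34 CPM, a log2 change of 1.19 ± 0.24 (SE, adjusted p = 0.0519). Adpgk, with at most 970 counts, matches Slc25a12 at 99.6% identity over 247 nt, and the Slc25a12 counts, 743 to 2389, were whole in every library. Both passed within replicates 2 and 3, with edgeR adjusted p of 0.00487 and 0.000799, and without knockout 1 (0.00468 and 0.000623). Their log2 ratios were 1.91 and 1.41 in replicates 2 and 3 against 0.64 and 0.56 in the Xist pair.

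Slc25a13, called citrin, is the main aspartate-glutamate carrier of liver, and its length-scaled level in WT was 72.1 CPM per kb. It had 228, 189 and 281 CPM in knockout against 197, 256 and 222 CPM in WT, so the groups overlapped. Their log2 difference was 0.05, with a 95% interval from -0.42 to 0.52, and it was -0.03 in the fit of replicates 2 and 3. The log2 ratio of Slc25a12 to Slc25a13, both per kb, was -4.30, -3.14 and -3.72 in knockout 1 to 3 and -4.63, -4.95 and -4.77 in WT 1 to 3. Citrin transcripts thus stayed above aralar transcripts in every library, and the ratio was closer to 0 in each knockout library than in any WT library.

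The remaining amino acid carriers did not pass the threshold. Slc25a38, the glycine carrier that serves haem synthesis, had a log2 fold change of 0.15 (95% interval -0.12 to 0.42). Slc25a44, a carrier of branched-chain amino acids, had -0.23 (-0.57 to 0.10). Slc25a29, a carrier of basic amino acids, was at 1.05, 4.10 and 3.38 CPM in knockout against 1.95, 1.56 and 1.28 CPM in WT. Knockout 1 was below every WT library and knockout 2 and 3 were above them, with log2 ratios of 1.34 in replicates 2 and 3 (adjusted p = 0.0107 in edgeR) and -0.84 in the Xist pair. Of the 7 tested amino acid carriers, 1 was called (higher), 3 had a positive change and an unadjusted p under 0.05, and the median log2 fold change was 0.83. Over all genes tested, 3.37% were called and 26.3% had an unadjusted p under 0.05.

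**Figure D3:**
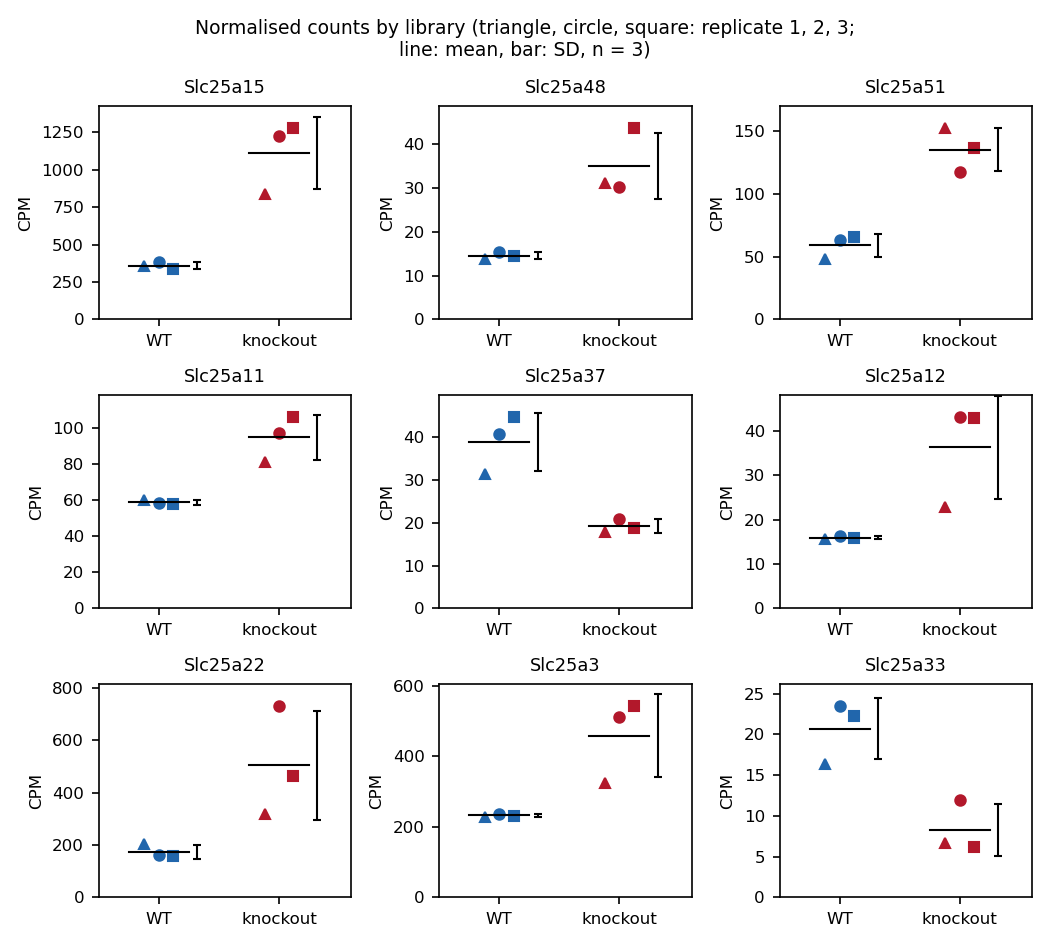
Normalised counts (vertical axes, CPM, starting at 0) in each library for the 5 called genes and for Slc25a12, Slc25a22, Slc25a3 and Slc25a33, with WT in blue and knockout in red. Symbols mark replicates 1, 2 and 3, lines the means and bars the SD (n = 3), and the knockout and WT symbols do not overlap in any of the 9 panels.

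Among carriers of di- and tricarboxylates, Slc25a11 was the only member of 4 past the threshold. Slc25a11 (ENSMUSG00000014606.14, chromosome 11, 70644196 to 70647479, minus strand, protein-coding) encodes the carrier that exchanges oxoglutarate for malate, the partner step of aralar and citrin in the malate-aspartate shuttle. It had 80.9, 97.2 and 106 CPM in knockout against 60.1, 58.1 and 57.6 CPM in WT, without overlap and with little spread in WT. This gave a log2 difference of 0.69 ± 0.14 (SE; 1.61-fold, adjusted p = 0.048 in edgeR), and the log2 ratios were 0.81 and 0.43 in replicates 2 and 3 and the Xist pair. Its exons share 189 bp with Rnf167 on the opposite strand, so reads there cannot be told apart without strand. The call was close to the threshold, with an adjusted p of 0.0501 under RLE scaling and 0.054 without a filter, and it held without knockout 1 only, with values from 0.107 (without WT 1) to 0.222 (without WT 2) where another library was left out, among them 0.115 without knockout 2, 0.176 without knockout 3 and 0.216 without WT 3.

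The citrate carrier Slc25a1, which supplies citrate to cytosolic fatty acid and sterol synthesis, was at 161, 89.7 and 127 CPM in knockout against 164, 192 and 195 CPM in WT. Each knockout library was below each WT library, knockout 1 only just, and the log2 change was -0.54, short of the threshold (95% interval -1.09 to 0.00, adjusted p = 0.191). It passed in replicates 2 and 3, with a log2 ratio of -0.84 and an adjusted p of 0.0236, and the Xist pair had -0.02. The dicarboxylate carrier Slc25a10, which exchanges malate or succinate for phosphate, was at 158 ± 33.4 CPM in knockout against 163 ± 10.4 CPM in WT (SD, n = 3), and the interval of its log2 fold change ran from -0.50 to 0.41. Slc25a21, the carrier of oxoadipate, had a log2 fold change of -0.25 (-0.77 to 0.26). Of the class, 1 member was called as higher and 0 as lower, against 2.15% and 1.22% of all genes tested, and the median was -0.15.

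None of the 7 tested nucleotide carriers passed the threshold in edgeR's fit of all 6 libraries with the filter on low counts. Of all genes tested, 3.37% did. At an unadjusted p under 0.05 there were 3 members, 2 of them higher and 1 lower, where 26.3% of all genes passed. In DESeq2, Slc25a25 and Slc25a33 passed (15.8% of all genes did), and in limma voom 0 did (2.97% of all genes). Slc25a33, a carrier of pyrimidine nucleotides, had the smallest p of the class. It was at 6.66, 11.9 and 6.13 CPM in knockout against 16.4, 23.4 and 22.2 CPM in WT, each knockout library below each WT library. Its log2 fold change was -1.33 ± 0.29 (SE, adjusted p = 0.0566), with a log2 ratio of -1.33 in replicates 2 and 3 and -1.29 in the Xist pair. It passed in edgeR in replicates 2 and 3 (adjusted p = 0.0227), without a filter (0.0369), with the kind of library as covariate (0.0357), without knockout 1 (0.0345) and without knockout 2 (0.0359). Gm13068 overlaps 281 bp of its exons on the opposite strand. The second pyrimidine nucleotide carrier, Slc25a36, had -0.40 (95% interval -1.21 to 0.41).

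Slc25a5, the main exchanger of ADP for ATP in this tissue by level, was at 408, 659 and 649 CPM in knockout against 371, 398 and 381 CPM in WT. Knockout 1 was just above the WT range and knockout 2 and 3 were well above it. This log2 change was 0.58 ± 0.22 (SE, adjusted p = 0.164). It passed in replicates 2 and 3 (log2 ratio 0.75, adjusted p = 0.018) and without knockout 1 (0.00876), and the log2 ratio in the Xist pair was 0.14. Its estimated counts were not whole in 5 libraries, and 3 processed pseudogenes match it at 95.3% to 98.3% identity over 594 to 900 nt, the most abundant with at most 23.7 counts. Its relative Slc25a4 was at 3.2 ± 1.4 CPM in knockout against 4.38 ± 1.69 CPM in WT, and Slc25a31 had at most 20 counts. Among carriers of ATP-Mg and phosphate, which are regulated by calcium and set the adenine nucleotide content of the matrix, Slc25a25 had 419, 483 and 525 CPM in knockout against 346, 274 and 367 CPM in WT, a log2 fold change of 0.53 (95% interval 0.09 to 0.97, adjusted p = 0.137), and it passed without knockout 1 (0.0405). Its paralogue Slc25a23 had -0.16 (-0.83 to 0.51), with knockout 2 alone, at 145 CPM, far below the other 5 libraries at 264 to 315 CPM. Slc25a24, with 1.97 ± 0.54 CPM in knockout against 1.75 ± 0.69 CPM in WT, had a log2 change of 0.17 (-0.71 to 1.05).

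The phosphate carrier Slc25a3, which delivers phosphate for ATP synthesis, was at 323, 512 and 542 CPM in knockout against 229, 238 and 231 CPM in WT. The groups were apart, and the WT libraries differed little (232 ± 4.62 CPM, SD, n = 3). Over all 6 libraries the log2 change was 0.98 ± 0.22 (SE), short of the threshold (adjusted p = 0.0635 in edgeR). It passed in replicates 2 and 3 (log2 ratio 1.17, adjusted p = 0.00448) and without knockout 1 (0.00239), and the log2 ratio in the Xist pair was 0.50.

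The uncoupling group holds 3 genes that resemble the uncoupling proteins in sequence, and Ucp1, Ucp2 and Ucp3 themselves fall outside the symbol rule. Slc25a30 had 48.4, 17.5 and 10.1 CPM in knockout against 51.9, 75.7 and 86.5 CPM in WT. Knockout 2 and 3 were far below all WT libraries, while knockout 1 was only just below WT 1. Over all 6 libraries the log2 fold change was -1.49 ± 0.55 (SE, adjusted p = 0.15), in replicates 2 and 3 the ratio was -2.54 (adjusted p = 0.00263), and in the Xist pair it was -0.10. Slc25a27 had 1.23 ± 0.33 CPM in knockout against 0.51 ± 0.32 CPM in WT (adjusted p = 0.17), with log2 ratios of 1.52 in replicates 2 and 3 (adjusted p = 0.029) and 0.64 in the Xist pair, and Slc25a14 had a log2 fold change of 0.10 (95% interval -0.45 to 0.65). Ucp2, the uncoupling protein with the most counts here, was at 30.3, 9.83 and 5.33 CPM in knockout against 26.2, 24.5 and 28.8 CPM in WT (adjusted p = 0.404 in edgeR). It was low in knockout 2 and 3 only. The summed macrophage markers were also lowest in these libraries (147, 69.7 and 55.0 CPM in knockout, 113, 92.7 and 125 CPM in WT). The part of macrophages in the Ucp2 values was not tested. Ucp1 had 0 counts and Ucp3 was under 0.1 CPM in every library.

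Among the 7 carriers of cofactors, Slc25a51 rose. Slc25a51 (ENSMUSG00000045973.18, chromosome 4, 45395923 to 45408766, minus strand, protein-coding) encodes the carrier that brings NAD into the matrix. It had 152, 118 and 137 CPM in knockout against 48.1, 63.5 and 65.4 CPM in WT. The lowest knockout library was well above the highest WT library, and here knockout 1 was the highest of its group. Its log2 fold change was 1.20 ± 0.18 (SE; 2.30-fold, adjusted p = 0.0258 in edgeR), with log2 ratios of 0.98 in replicates 2 and 3 and 1.66 in the Xist pair. It passed without knockout 1, and without knockout 2 (0.0553), knockout 3 (0.122), WT 1 (0.0535), WT 2 (0.15) or WT 3 (0.138) it did not. Gm25692 overlaps 125 bp of its exons on the same strand.

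The other 6 cofactor carriers did not pass the threshold. Slc25a26, the carrier of S-adenosylmethionine, was at 9.44 ± 2.08 CPM in knockout against 5.52 ± 0.67 CPM in WT without overlap (adjusted p = 0.0836), and it passed in replicates 2 and 3 (log2 ratio 0.84, adjusted p = 0.00786), with 0.55 in the Xist pair. Slc25a42, a carrier of coenzyme A, had 140, 85.5 and 112 CPM in knockout against 71.9, 99.9 and 104 CPM in WT, so that knockout 1 was high and WT 1 low while the other libraries overlapped. Slc25a32, linked to folate and flavin transport, had a log2 fold change of 0.07, with a 95% interval of -0.20 to 0.33. Slc25a16 had -0.50 (-0.89 to -0.12, adjusted p = 0.116). Slc25a17, a peroxisomal member, had -0.04 (-0.60 to 0.52), and its sign changed to 0.01 with scaling by library size alone.

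Slc25a20, the carrier that exchanges acylcarnitines for carnitine and so admits long-chain fatty acids to oxidation, was at 96.1, 70.5 and 73.1 CPM in knockout against 101, 128 and 119 CPM in WT. Each knockout library was below each WT library, and the log2 fold change was -0.54 ± 0.17 (SE, adjusted p = 0.116). In replicates 2 and 3 the log2 ratio was -0.78 (adjusted p = 0.00626), and in the Xist pair it was -0.07. Other loci match up to 366 nt of it, none with more than 49.7 counts.

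The mitoferrins, which carry iron into the matrix, had changes of opposite sign. Slc25a37 (mitoferrin 1, ENSMUSG00000034248.7, chromosome 14, 69241848 to 69285112, minus strand, protein-coding) fell, with 17.8, 20.9 and 18.8 CPM in knockout against 31.4, 40.7 and 44.5 CPM in WT. The knockout libraries lay close together below all WT libraries. The log2 change was -1.02 ± 0.16 (SE; 2.03-fold lower, adjusted p = 0.0301 in edgeR), with log2 ratios of -1.10 in replicates 2 and 3 and -0.82 in the Xist pair. It passed without knockout 1 and without WT 1, and not without knockout 2 (0.0718), knockout 3 (0.146), WT 2 (0.16) or WT 3 (0.141). Its counts were not whole in any of the 6 libraries, and Gm16867, which matches it at 100% identity over 382 nt, had 4.40 ± 1.29 CPM in knockout against 3.78 ± 0.40 CPM in WT, so the division of reads between them is uncertain. On the opposite strand, Gm31748 and Gm27223 overlap 381 and 92 bp of its exons. Slc25a28 (mitoferrin 2) was at 19.2, 33.1 and 26.3 CPM in knockout against 13.8, 14.9 and 15.3 CPM in WT, above WT in each library, a log2 change of 0.84 ± 0.20 (SE, adjusted p = 0.0687). Its log2 ratio was 0.97 in replicates 2 and 3 (adjusted p = 0.00622) and 0.47 in the Xist pair. The log2 ratio of mitoferrin 2 to mitoferrin 1, both per kb, was 1.53, 2.08 and 1.91 in knockout and 0.25, -0.00 and -0.10 in WT. With exon lengths of the basic annotation, the pair was near equal in WT and tilted to mitoferrin 2 in every knockout library. The balance depends on these lengths, 1535 bp for Slc25a28 and 4174 bp for Slc25a37, against 3749 and 6021 bp in the full annotation. The tilt restates the separate shifts of both genes. An exact permutation test of 3 against 3 libraries gave p = 0.1, the smallest it can give, so it could not pass a threshold of 0.05.

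The glutathione carrier Slc25a39 had 402, 546 and 625 CPM in knockout against 315, 333 and 336 CPM in WT, without overlap. Its log2 fold change was 0.68 ± 0.20 (SE, adjusted p = 0.10), with log2 ratios of 0.81 in replicates 2 and 3 (adjusted p = 0.0162) and 0.35 in the Xist pair. Its paralogue Slc25a40 had 4.74 ± 0.85 CPM in knockout against 4.00 ± 0.11 CPM in WT (SD, n = 3), with a 95% interval of the log2 fold change from -0.21 to 0.70.

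Of the 7 tested genes with no substrate class, Slc25a48 rose and the others did not pass the threshold. Slc25a48 (ENSMUSG00000021509.5, chromosome 13, 56438355 to 56474239, plus strand, protein-coding) had 31.1, 30.3 and 43.7 CPM in knockout against 13.9, 15.3 and 14.6 CPM in WT. All 3 knockout libraries were above the narrow WT range, knockout 3 the furthest. The fitted log2 change was 1.26 ± 0.17 (SE; 2.40-fold, adjusted p = 0.0212 in edgeR), and the ratios of 1.3 in replicates 2 and 3 and 1.16 in the Xist pair were close to each other. It passed without knockout 1 and without knockout 2, and not without knockout 3 (0.0542), WT 1 (0.055), WT 2 (0.128) or WT 3 (0.132). Slc25a47 had 510, 312 and 302 CPM in knockout against 460, 475 and 385 CPM in WT, so knockout 1 was the highest of all libraries and knockout 2 and 3 the lowest. Its log2 fold change was -0.23 (95% interval -0.82 to 0.36). Slc25a35 had a log2 ratio of -1.70 ± 0.42 (SE, adjusted p = 0.0719, not past the threshold), from 0.39 ± 0.18 CPM in knockout against 1.26 ± 0.18 CPM in WT, and 1151 bp of its exons overlap Rangrf on the opposite strand, so reads in that stretch cannot be told apart from those of Rangrf without strand. Its log2 ratio was -1.90 in replicates 2 and 3 (adjusted p = 0.00947) and -0.79 in the Xist pair. Slc25a45 was higher without overlap (0.40, adjusted p = 0.111), Slc25a34 had 0.57 (95% interval -0.17 to 1.32), and Slc25a46 and Slc25a53 had 0.08 and -0.17.

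Whether the knockout difference itself depended on the kind of library was tested with an interaction term. This term cannot separate the kind of library from the higher Stk11 left in knockout 1. In edgeR, 0 of the 41 members passed an adjusted p of 0.05, against 2.90% of all genes tested, while 11 had an unadjusted p under 0.05, against 20.9% of all genes. DESeq2 and limma voom were not run for this term. The smallest adjusted p-values were those of Slc25a30 (0.0582), Slc25a12 (0.062) and Slc25a29 (0.0622). Within replicates 2 and 3 alone, where 33.3% of all genes passed, 13 members passed as higher and 6 as lower (17.2% and 16.1% of all genes). All 5 genes called over the 6 libraries were among them, which is no separate check, because replicates 2 and 3 are part of those 6. The Xist pair is 1 library against 1 with no replicate check, and since the groups did not overlap for the 5 called genes, their direction there was already set.

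**Figure D4:**
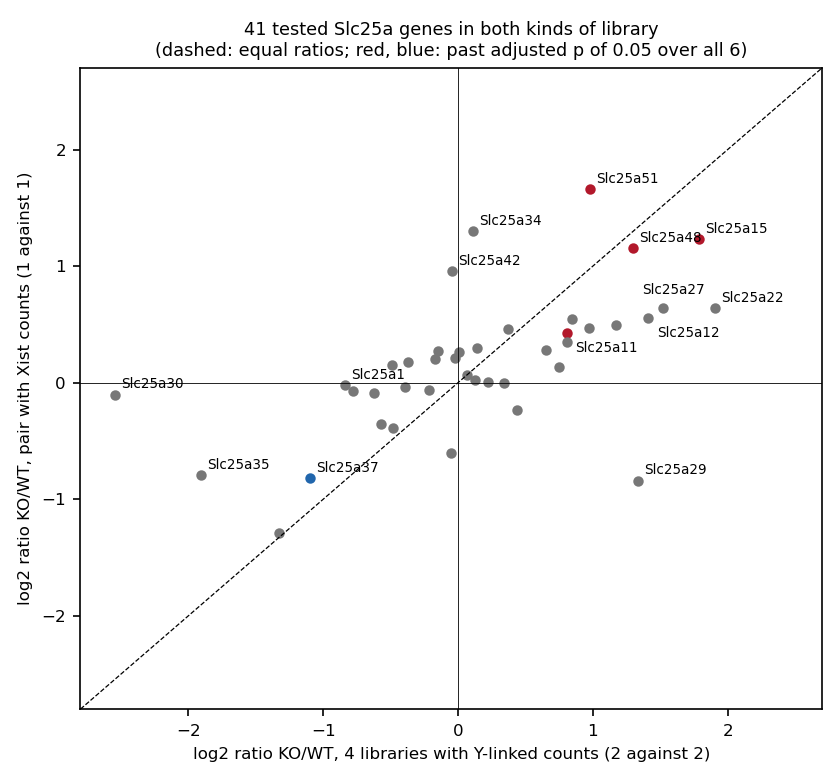
Log2 ratio of knockout to WT for the 41 tested Slc25a genes in replicates 2 and 3 of each group (horizontal axis) and in the pair with Xist counts (vertical axis), with the line of equal ratios dashed. The 5 called genes are red and blue, Slc25a30 lies at -2.54 and -0.10, and Slc25a29 has opposite signs.

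Genes that work beside the carriers were read from the same fit. Of 22 enzymes on either side of the carriers, 6 were called as higher and 0 as lower, with a median log2 fold change of 1.07. They are 27.3% of the list, against 3.37% of all genes tested (2.15% as higher). Oat, which makes glutamate semialdehyde from ornithine in the matrix, changed most clearly (log2 fold change 2.99, adjusted p = 0.0047 in edgeR), followed by the glutaminase Gls2 (2.12, 0.0132), the aspartate aminotransferase Got1 (3.19, 0.0214) and the urea cycle enzyme Asl (2.64, 0.0303). Oat lost its call without WT 2 (0.0639) and without WT 3 (0.0613), as did Gls2 (0.112 and 0.104). Got1 also lost it without knockout 2 (0.0619) or knockout 3 (0.102) and reached 0.142 without WT 2, and Asl held it without knockout 1 only, up to 0.166 without WT 2. Of 22 tested transporters outside the family, among 26 listed, only Sfxn2, a sideroflexin of the inner membrane, was called (1.3, adjusted p = 0.043; 4.55% of the list), and it lost the call in every refit without a single library other than knockout 1, up to 0.209 without WT 2. The pyruvate carrier subunits Mpc1 and Mpc2 overlapped between the groups, with log2 fold changes of 0.56 and 0.23 and adjusted p-values of 0.245 and 0.558. Mpc1 had a log2 ratio of 1.00 in replicates 2 and 3 (adjusted p = 0.00814) and -0.27 in the Xist pair, with an interaction p of 0.00397 (adjusted p = 0.0825 in edgeR).

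The other 6 paralogue or partner pairs gave the following. Slc25a15 over Slc25a13 and Slc25a39 over Slc25a40 were higher in every knockout library, and Slc25a10 over Slc25a11 was lower (log2 ratio 0.86, 0.05 and 0.52 in knockout against 1.09, 1.32 and 1.27 in WT). Slc25a4 over Slc25a5, Slc25a33 over Slc25a36 and Slc25a25 over Slc25a23 overlapped between the groups. The pairs were chosen with values known. The exact permutation test of 3 against 3 libraries gave p from 0.1 to 0.3 over the 8 pairs. It cannot give less than 0.1, so it could not pass a threshold of 0.05.

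The 20 genes of protein import and general mitochondrial function all had log2 fold changes above 0 (7410 of the 14539 genes tested did), from 0.09 to 1.39, with a median of 0.58. Timm50, a subunit of the inner membrane translocase, was the only call (0.51, adjusted p = 0.0488 in edgeR), close to the threshold. That call is 5% of the list, against 3.37% of all genes tested (2.15% as higher). It was lost with RLE scaling (0.0515), library size alone (0.0529), no filter (0.0767) and limma voom (0.0543), and without any library but knockout 1, up to 0.224 without WT 2. Groups did not overlap for 15 of the 20, or 75%, against 32.4% of all genes tested. In all 15, knockout was above WT, as in 16.9% of all genes.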

How the data were processed

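Poly(A) RNA of 6 mouse livers (3 knockout, 3 WT) was sequenced in 1 pool. The authors deposited 1 table of expected counts (estimated reads per gene), and 4.93% to 5.47% of a library's values were not whole. The submitters' processing notes name bcl2fastq 2.17, cutadapt 1.18, STAR 2.7.0f, RSEM 1.3.1 and the build mm9. However, all 55450 versioned gene identifiers are those of GENCODE M21 (GRCm38), whose positions are used here. The use of strand is not given in the sources used here, so overlapping genes are uncertain.

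Counts were rounded, filtered with filterByExpr (14539 genes left), scaled by TMM and compared with edgeR 4.0.16 (quasi-likelihood test, R 4.3.3), adjusting over all genes at a threshold of 0.05. The SE is the log2 fold change divided by the square root of F, and intervals are at 95%. CPM uses TMM-scaled totals, levels per kb use exon lengths of the basic annotation, and ratios within subsets and between paralogues add 0.1. Near-identical copies were matches of at least 200 nt at 95% identity to transcripts of other loci. Alternatives were RLE or no scaling, no filter, DESeq2 1.42.0, limma 3.58.1 (voom), a replicate block, the kind of library as covariate or subset, and leaving out each library. The test was tried on simulated data with less spread than was fitted here. That trial does not show how the test behaves at the spread of these data.

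Members, classes and lists were chosen with earlier results of these data known. Values in every library are given for called members, the 3 highest in WT and the smallest p of each class. Other members are given by means, fold changes or ranges, or library by library where the libraries of a group lay apart. From the other lists, up to 4 called genes are named, and Mpc1, Mpc2 and the Ucp genes were added after their values were seen. The 8 paralogue or partner pairs were also chosen then, and likewise Slc25a12, Slc25a22, Slc25a3 and Slc25a33 for the plot by library. The single values of 1 tested member are not reported here. Mice are separate animals per the labels. No 2 libraries agreed within sampling noise (the lowest chi-square per degree of freedom was 31.3).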

Additional observations from a re-analysis of the deposited data

How the results depend on the processing

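The median log2 fold change of the members stayed between 0.10 and 0.20 in all 14 alternatives. The number of members called, 5 as reported, was 4 with RLE scaling, 6 with library size alone, 7 without a filter, 5 in limma voom, 16 in DESeq2, 12 with the kind of library as covariate and 19 in replicates 2 and 3. Leaving out a library gave 0 to 21. Calls in the other lists, 8 as reported, numbered 13 without a filter, 27 in DESeq2, 18 with the covariate, 40 in replicates 2 and 3, and 0 to 38 when a library was left out. The share of all genes called moved as well, at 3.25%, 15.8%, 10.3% and 33.3% in the first 4 of these and 0.0401% to 30.2% when a library was left out, against 3.37% as reported. With the replicate block, 0 members and 1 gene of the other lists passed in edgeR, while 18 members had an unadjusted p under 0.05. The labels do not say that replicate numbers pair the mice: deviations of same-numbered libraries correlated at 0.178, 0.0443 and 0.0679, and knockout 2 and 3 correlated best with WT 3 and WT 2. The 5 called members kept their direction in every alternative. Since their groups did not overlap, that direction was largely set already in the fits of fewer libraries. Signs changed for 7 members, none of them called. Slc25a17 was 0.0100 with library size alone, and Slc25a42 was -0.052 and Slc25a13 -0.029 in replicates 2 and 3. Leaving out a library gave -0.26 to 0.084 for Slc25a17, -0.11 to 0.18 for Slc25a13, -0.15 to 0.13 for Slc25a10, -0.40 to 0.11 for Slc25a23, -0.053 to 0.17 for Slc25a46 and -0.056 to 0.51 for Slc25a24. The interaction called 0 members in edgeR with either scaling. The causes were not tested. The common biological coefficient of variation was 0.314. At this depth 6 members were too low to test.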
